A study of Mus musculus with 16 samples.

Results

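The surfactant and alveolar type 2 genes were taken as 10 genes: the surfactant proteins Sftpa1, Sftpb, Sftpc and Sftpd, the lamellar body genes Abca3 and Lamp3, the phosphate transporter Slc34a2, the protease Napsa, the lipid enzyme Lpcat1 and the transcription factor Etv5. Every probe set of the array annotated to exactly 1 of these symbols was a member, whatever its values, which gave 16 probe sets of 9 genes among 22626 tested. Of these 9 genes, 4 had 1 probe set, 3 had 2 and 2 had 3. Lamp3 had none, since its only probe set is also annotated to another gene, so it is not analysed here. The values come from 16 arrays, each carrying left-lung RNA of a single mouse. The groups were adiponectin-deficient mice after ozone, wildtype mice after ozone, adiponectin-deficient mice in room air and wildtype mice in room air, with 4 mice each. Ozone was given at 0.3 ppm for 72 h and air mice breathed room air for as long; lungs were taken immediately afterwards. The mice had a mean age of 14 weeks and a C57BL/6 background, and each group held 2 males (M1 and M2) and 2 females (F1 and F2). The deficient mice were genetically deficient; the sources used here give neither the allele nor whether the wildtype mice were littermates.

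Alveolar type 2 cells make pulmonary surfactant, the film of phospholipid and protein that keeps alveoli from collapsing. Phosphatidylcholine, remodelled by LPCAT1, is pumped into lamellar bodies by ABCA3 and secreted with the small hydrophobic proteins SP-B and SP-C, which spread the film, while SP-A and SP-D are collectins that bind microbes and regulate surfactant turnover. The transcription factor NKX2-1 binds the promoters of several surfactant protein genes, and ETV5, an ETS factor induced by fibroblast growth factor signalling, maintains the type 2 cell in mice. Because whole lung was measured, fewer type 2 cells and less RNA per type 2 cell cannot be told apart.

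Promoter windows were available for 7 of the 10 genes, from 250 bases before to 50 bases after a transcription start in RefSeq's GRCm38.p6 annotation. The windows below are those of the analysed members that held a match to either motif marked in capitals. They are printed 5′ to 3′ on the gene's strand. Capitals mark CTCAAG, a core to which NKX2-1 binds, and GGAAG, a core of ETS factor sites, each on either strand, so that CTTCC is GGAAG read from the other strand. No CTTGAG stood in these windows.
Sftpa1 chr14:41131538-41131837 (+): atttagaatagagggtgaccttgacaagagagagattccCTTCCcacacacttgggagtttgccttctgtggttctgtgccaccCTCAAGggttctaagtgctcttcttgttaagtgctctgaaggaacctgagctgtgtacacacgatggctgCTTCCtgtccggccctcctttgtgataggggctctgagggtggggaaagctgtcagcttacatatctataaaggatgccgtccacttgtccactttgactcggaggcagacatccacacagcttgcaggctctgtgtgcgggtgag
Sftpb chr6:72304360-72304659 (+): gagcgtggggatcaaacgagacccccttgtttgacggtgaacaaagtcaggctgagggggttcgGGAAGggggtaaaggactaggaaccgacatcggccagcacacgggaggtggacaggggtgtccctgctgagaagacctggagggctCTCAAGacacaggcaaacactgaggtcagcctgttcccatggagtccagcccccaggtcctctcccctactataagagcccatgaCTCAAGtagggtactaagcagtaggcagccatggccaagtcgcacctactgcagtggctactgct
Lpcat1 chr13:73466981-73467280 (+): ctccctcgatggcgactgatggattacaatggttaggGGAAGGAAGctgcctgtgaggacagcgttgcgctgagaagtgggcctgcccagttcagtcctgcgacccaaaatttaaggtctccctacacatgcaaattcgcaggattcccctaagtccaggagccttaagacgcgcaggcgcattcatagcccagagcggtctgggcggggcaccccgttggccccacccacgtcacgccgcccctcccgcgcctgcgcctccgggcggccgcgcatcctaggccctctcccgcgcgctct
Etv5 chr16:22438319-22438618 (-): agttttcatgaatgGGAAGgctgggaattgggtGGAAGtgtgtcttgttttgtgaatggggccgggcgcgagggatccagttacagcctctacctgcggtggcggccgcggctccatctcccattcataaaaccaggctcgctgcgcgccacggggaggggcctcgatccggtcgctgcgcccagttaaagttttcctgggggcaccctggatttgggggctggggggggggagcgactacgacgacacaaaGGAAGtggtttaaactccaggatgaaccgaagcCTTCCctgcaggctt
The Sftpb window held 2 matches to CTCAAG, beginning at positions -100 and -15 from the start, and the Sftpa1 window held 1, at -166. Of all 32851 RefSeq mouse promoter windows of this length, 15.9% held CTCAAG and 71.4% held GGAAG on either strand. The Lpcat1 window held 2 overlapping GGAAG at -213 and -209, and the window shown for Etv5, that of the more downstream of its 2 annotated starts, held 4. The windows of Abca3 and Slc34a2 and that of the other Etv5 start held neither motif, and that of Lamp3 held 2 GGAAG. Sftpc, Sftpd and Napsa had no entry. A match describes these letters only and is not a measured binding site.

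Adipoq, the targeted gene, had 6.68 ± 0.90 log2 intensity in the deficient mice and 8.48 ± 1.35 in the wildtype mice (SD, n = 8 each). The difference was -1.80 by a two-sided exact permutation test (p = 0.00420), but 1 array labelled deficient (deficient air F2) lay at 8.82, inside the wildtype range. Array medians of intensity lay between 146 and 154. The first principal component, 44.6% of the variance, placed the ozone arrays between 16.8 and 33.6 and the air arrays between -26.5 and -21.8. A free description calls wildtype ozone F1 an air sample where its title and exposure label say ozone; it lay at 24.3 and was kept with the ozone arrays. In air, 3 arrays carried markers of other tissues. Intensity summed over 6 fat markers was 7759.9 on deficient air F2 and 8650.2 on wildtype air F1, against 668 to 1752 on the other 14 arrays. Summed over 8 striated muscle markers it was 29878 on deficient air M2, against 566 to 773 elsewhere, and over 7 markers of squamous oesophagus 17604 on the same array, against 349.7 to 1166 elsewhere. Below, these 3 are called the air arrays with other tissue, and a call of a named gene that ended without them is given with its value; the part of those tissues was otherwise not tested. Differences are log2 fold changes ± SE from limma, with 4 arrays per group, and a probe set was called where its p, adjusted by Benjamini-Hochberg over all 22626 probe sets, was under 0.05.

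Ozone was followed by small differences in the members, more of them upward than downward. In deficient mice 4 of 16 were called, 3 higher (Sftpd, Sftpb and 1 probe set of Lpcat1) and 1 lower (1 probe set of Sftpa1), and in wildtype mice 5 of 16 were called, 4 higher (Sftpd, 2 probe sets of Abca3 and 1 of Lpcat1) and 1 lower (the same Sftpa1 probe set). These counts are near the background: of all probe sets, 29.3% were called in deficient mice (14.5% higher and 14.8% lower) and 36.3% in wildtype mice (18.2% higher and 18.2% lower). The largest ozone difference of a member was 0.51 in deficient and 0.48 in wildtype mice, so none reached 2-fold. The median over the 16 was 0.17 in deficient mice, against 0.0022 over all probe sets, and 0.09 in wildtype mice, against 0.02. The groups did not overlap for 2 of the 16 in deficient mice, against 27.2% of all probe sets, and for 5 of the 16 in wildtype mice, against 30.7%.

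**Figure D1:**
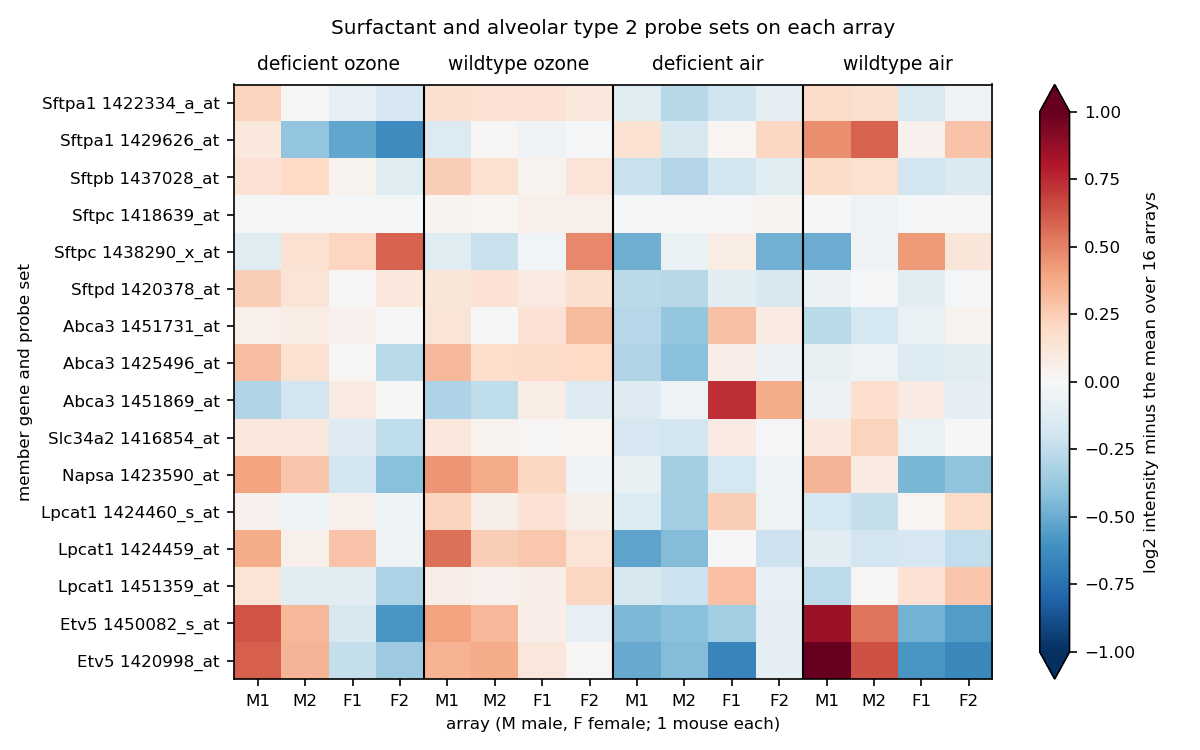
Log2 intensity of each member probe set (rows) on each array (columns), minus that row's mean over 16 arrays, with groups from left to right deficient ozone, wildtype ozone, deficient air and wildtype air. Both Etv5 rows are high on the male arrays of 3 groups and low on the male arrays of deficient air, while Sftpc 1418639_at varies by 0.11 in all.

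**Figure D2:**
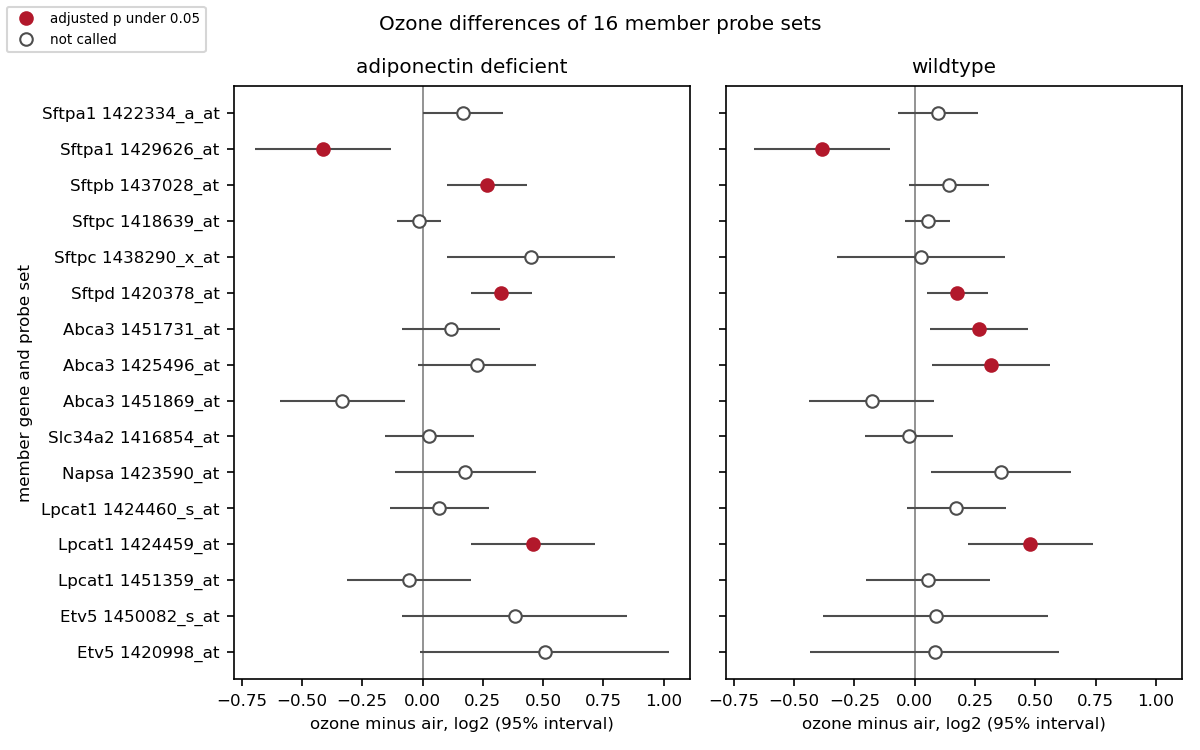
Ozone minus air log2 difference of each member probe set with its 95% interval, in deficient mice (left) and wildtype mice (right), 4 arrays per group. Filled points were called: 4 in deficient and 5 in wildtype mice.

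Among the collectins, Sftpd rose and the 2 Sftpa1 probe sets gave different answers. Sftpd encodes SP-D, which binds sugars on microbes and curbs surfactant pools in mice. Sftpd (1420378_at) lay at 13.89, 13.77, 13.65 and 13.75 log2 intensity in deficient ozone, against 13.37, 13.36, 13.53 and 13.48 in deficient air. Values are given for M1, M2, F1 and F2, in that order. In wildtype mice it lay at 13.76, 13.79, 13.73 and 13.80 after ozone, against 13.58, 13.63, 13.53 and 13.62 in air. Every ozone array lay above every air array of its genotype. The difference was 0.33 ± 0.06 in deficient mice (limma adjusted p = 0.000849, 1.25-fold) and 0.18 ± 0.06 in wildtype mice (limma adjusted p = 0.0316, 1.13-fold). The call in deficient mice was kept in all 28 other settings run. That in wildtype mice was lost without wildtype air M1 or F1 or wildtype ozone M1, M2 or F2 (adjusted p 0.0538 to 0.0812 when each was left out alone), without the 3 air arrays with other tissue (0.0898), and after quantile normalization again (0.0612).

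Sftpa1 encodes SP-A. Its probe set 1429626_at lay at 12.39, 11.89, 11.76 and 11.65 in deficient ozone, against 12.43, 12.12, 12.30 and 12.48 in deficient air. In wildtype mice the values were 12.14, 12.29, 12.25 and 12.27 after ozone, against 12.74, 12.87, 12.32 and 12.56 in air. All 4 wildtype ozone arrays lay below all 4 wildtype air arrays, while in deficient mice deficient ozone M1 lay among the air arrays. The difference was -0.41 ± 0.13 in deficient mice (limma adjusted p = 0.0292) and -0.38 ± 0.13 in wildtype mice (limma adjusted p = 0.0343). The first call was lost without deficient air M1, F1 or F2 or deficient ozone M2, F1 or F2 (adjusted p 0.0640 to 0.101), the second without wildtype air M1, M2 or F2 or wildtype ozone M1 or M2 (0.0671 to 0.107). The first also ended when the 2 groups were fitted alone (0.0724), and the second with a common median for all arrays (0.0505) and without the sex term (0.0504). The brighter Sftpa1 probe set, 1422334_a_at, was at 14.12, 13.90, 13.81 and 13.72 in deficient ozone, against 13.77, 13.61, 13.69 and 13.80 in deficient air, a difference of 0.17 ± 0.08 (limma adjusted p = 0.124). In wildtype mice it was at 14.05, 14.04, 14.04 and 14.00 after ozone, against 14.08, 14.05, 13.74 and 13.86 in air, 0.10 ± 0.08 (limma adjusted p = 0.347). The groups of this probe set overlapped in both genotypes. The 2 probe sets of Sftpa1 thus differed in sign in both genotypes, so the data give no single direction for the gene.

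Of the hydrophobic proteins, Sftpb rose in deficient mice, and Sftpc was called at neither of its probe sets. Sftpb encodes SP-B, without which newborn mice cannot breathe. Sftpb (1437028_at) lay at 13.78, 13.83, 13.66 and 13.51 in deficient ozone, against 13.41, 13.34, 13.44 and 13.51 in deficient air, just without overlap, since deficient ozone F2 and deficient air F2 both rounded to 13.51. The difference was 0.27 ± 0.08 (limma adjusted p = 0.0170, 1.20-fold), and was lost without deficient air M1 or M2 or deficient ozone M2 (adjusted p 0.0513 to 0.0586). In wildtype mice Sftpb lay at 13.88, 13.79, 13.67 and 13.76 after ozone, against 13.81, 13.78, 13.44 and 13.49 in air, 0.14 ± 0.08 (limma adjusted p = 0.171), and the groups overlapped because the 2 wildtype air males were as high as the ozone arrays. Sftpc encodes SP-C, found in the lung in type 2 cells. Sftpc 1418639_at lay between 14.51 and 14.62 on all 16 arrays, where the highest value of any probe set on an array was 14.60 to 14.72, at the top of the scale, where a difference can be compressed. Its ozone differences were -0.01 ± 0.04 in deficient and 0.05 ± 0.04 in wildtype mice (limma adjusted p = 0.837 and 0.359). Its other probe set, 1438290_x_at, whose suffix marks probes that may bind other transcripts, lay between 4.22 and 5.31, close to the 4.11 to 4.46 of the Y-linked Eif2s3y in females, which lack the gene. Its ozone difference was 0.45 ± 0.16 in deficient mice (limma adjusted p = 0.0500362) and 0.02 ± 0.16 in wildtype mice (limma adjusted p = 0.924), neither called.

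**Figure D3:**
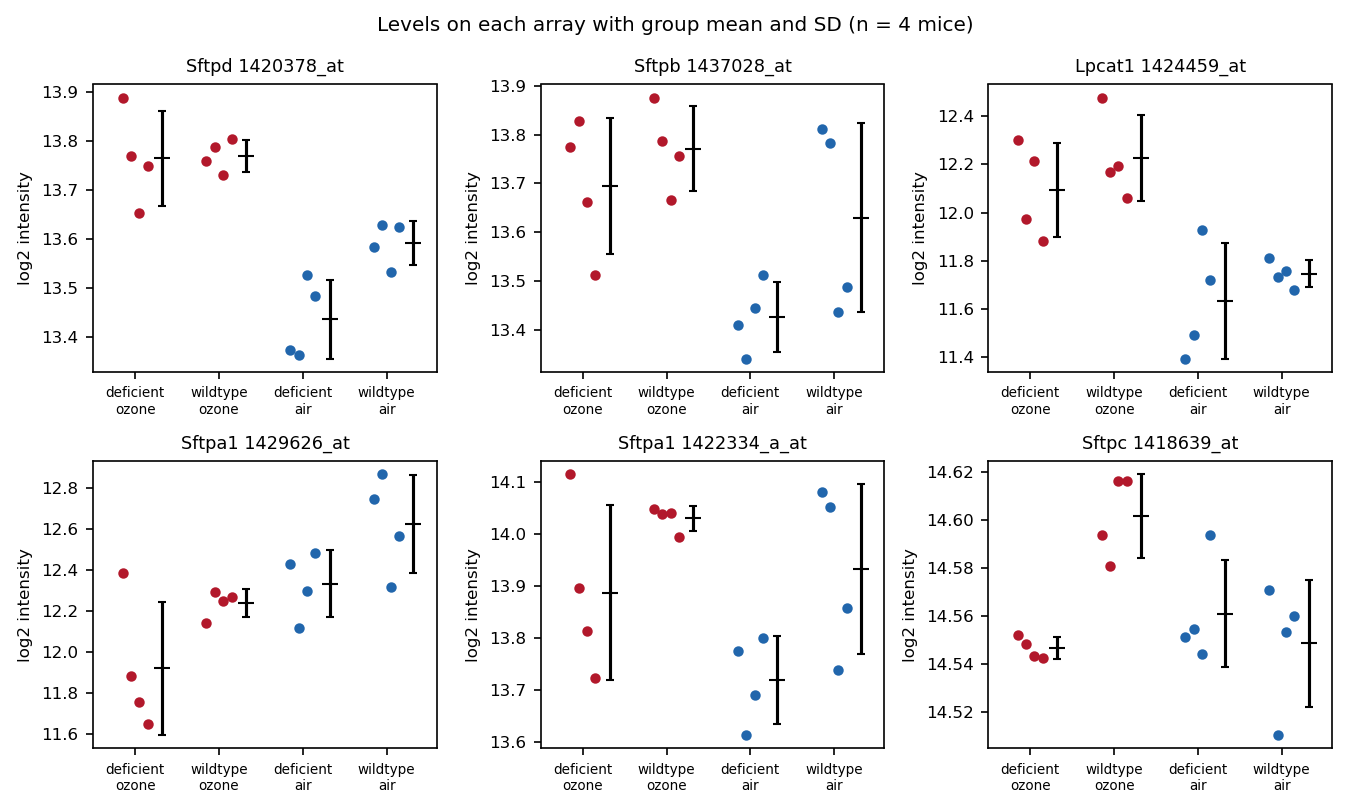
Log2 intensity on each array (points, in the order M1, M2, F1, F2) with the group mean and SD (n = 4 mice) for Sftpd, Sftpb, Lpcat1 1424459_at, both Sftpa1 probe sets and Sftpc 1418639_at; ozone arrays are red and air arrays blue, and the y axes do not start at 0. Sftpd is higher on every ozone array than on any air array of the same genotype, and Sftpa1 1429626_at is lower after ozone.

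Of the lamellar body and lipid genes, Lpcat1 had the largest called ozone differences of the members in both genotypes, at 1 of its 3 probe sets. Lpcat1 encodes the acyltransferase that makes the dipalmitoyl phosphatidylcholine of surfactant. Lpcat1 1424459_at lay at 12.30, 11.98, 12.21 and 11.88 in deficient ozone, against 11.39, 11.49, 11.93 and 11.72 in deficient air. In wildtype mice the values were 12.48, 12.17, 12.20 and 12.06 after ozone, against 11.81, 11.73, 11.76 and 11.68 in air. The wildtype groups were separate, and in deficient mice only deficient ozone F2 lay below an air array, deficient air F1. The difference was 0.46 ± 0.12 in deficient mice (limma adjusted p = 0.01001, 1.37-fold) and 0.48 ± 0.12 in wildtype mice (limma adjusted p = 0.00655, 1.39-fold). The wildtype call was kept in all 26 other settings in which the probe set was tested, and the deficient call was lost without the 3 air arrays with other tissue (0.43, adjusted p = 0.0667) and at a threshold of 0.01. The other 2 probe sets were not called: 1424460_s_at differed by 0.07 ± 0.10 in deficient and 0.17 ± 0.10 in wildtype mice, and 1451359_at by -0.06 ± 0.12 and 0.06 ± 0.12.

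Abca3, the lamellar body lipid pump, rose in wildtype mice at both of its bright probe sets. Abca3 1425496_at lay at 9.84, 9.69, 9.55 and 9.27 in deficient ozone, against 9.24, 9.12, 9.60 and 9.48 in deficient air, with overlap (0.23 ± 0.11, limma adjusted p = 0.156). In wildtype mice it lay at 9.86, 9.71, 9.73 and 9.73 after ozone, against 9.46, 9.48, 9.40 and 9.42 in air, with a clear gap (0.32 ± 0.11, limma adjusted p = 0.0413). Abca3 1451731_at lay at 10.84, 10.87, 10.84 and 10.80 in deficient ozone, against 10.51, 10.41, 11.09 and 10.88 in deficient air (0.12 ± 0.10, limma adjusted p = 0.396). In wildtype mice it lay at 10.93, 10.80, 10.94 and 11.11 after ozone, against 10.53, 10.62, 10.73 and 10.83 in air (0.27 ± 0.10, limma adjusted p = 0.0401), and wildtype air F2 was the 1 air array above an ozone array. Both wildtype calls were lost without any 1 of the 4 wildtype air arrays, without wildtype ozone M1, M2 or F2 (1425496_at also without wildtype ozone F1 or deficient ozone F1, adjusted p 0.0510 to 0.108 over both probe sets), and without the 3 air arrays with other tissue (0.0701 for 1451731_at and 0.0554 for 1425496_at). The call of 1451731_at was lost in 14 of 28 other settings, among them quantile normalization again (0.0820), the mean of the gene's probe sets (a difference of 0.14, adjusted p = 0.282), array weights (0.0548), no sex term (0.103) and the replicate number as a block (0.0585). The third Abca3 probe set, 1451869_at, lay between 4.69 and 5.73, near the level of an absent gene, and was not called (-0.33 ± 0.12 in deficient mice, limma adjusted p = 0.0514; -0.18 ± 0.12 in wildtype mice, limma adjusted p = 0.269). Leaving out wildtype ozone M1 alone reduced the members called in wildtype mice to 1.

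Slc34a2, the type 2 cell's sodium-phosphate cotransporter, and Napsa, an aspartic protease that helps process SP-B, were not called for ozone. Slc34a2 (1416854_at) lay between 12.89 and 13.37 on all arrays, and ozone differed from air by 0.03 ± 0.09 in deficient and -0.02 ± 0.09 in wildtype mice (95% intervals -0.15 to 0.21 and -0.21 to 0.16). Napsa (1423590_at) lay at 12.34, 12.21, 11.74 and 11.51 in deficient ozone, against 11.86, 11.59, 11.76 and 11.89 in deficient air, 0.18 ± 0.14 (limma adjusted p = 0.365). In wildtype mice Napsa lay at 12.37, 12.31, 12.14 and 11.90 after ozone, against 12.27, 12.01, 11.47 and 11.53 in air, 0.36 ± 0.14 (limma adjusted p = 0.0532). In both ozone groups and in wildtype air the males were the higher 2 arrays.

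Etv5 was the member that varied most between mice, and it varied with sex. Etv5 1450082_s_at lay at 8.79, 8.49, 7.99 and 7.58 in deficient ozone, against 7.71, 7.74, 7.81 and 8.06 in deficient air. In wildtype mice it lay at 8.56, 8.49, 8.23 and 8.07 after ozone, against 9.02, 8.69, 7.69 and 7.60 in air. Males were high in 3 groups and low in deficient air, and the lowest arrays were the wildtype air females and deficient ozone F2. Etv5 1420998_at gave a like picture, at 8.34, 8.08, 7.50 and 7.38 in deficient ozone, against 7.24, 7.31, 7.08 and 7.65 in deficient air. Its wildtype values were 8.09, 8.12, 7.86 and 7.76 after ozone, against 8.85, 8.38, 7.16 and 7.10 in air. Over both sexes, ozone was not called for either probe set: 0.38 ± 0.22 and 0.51 ± 0.24 in deficient mice (limma adjusted p = 0.213 and 0.135), 0.09 ± 0.22 and 0.08 ± 0.24 in wildtype mice (limma adjusted p = 0.787 and 0.817). Over all groups, 3 of 16 member probe sets were higher in males than in females and 0 lower, against 9.18% of all probe sets called for sex. They were Etv5 1450082_s_at (0.56 ± 0.15, limma adjusted p = 0.0353), Etv5 1420998_at (0.62 ± 0.17, limma adjusted p = 0.0363) and Napsa (0.38 ± 0.10, limma adjusted p = 0.0258). Both Etv5 calls were lost with an intensity trend and robust prior (adjusted p = 0.0525 for 1450082_s_at and 0.0575 for 1420998_at). They were each lost in 10 of the 16 fits that left out 1 array, among them each of the 4 wildtype air and the 4 deficient ozone arrays (adjusted p 0.0520 to 0.0794), and the Napsa call in 5, those without wildtype air M1 or F1, wildtype ozone F2 or deficient ozone M1 or F2 (0.0526 to 0.0581).

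**Figure D4:**
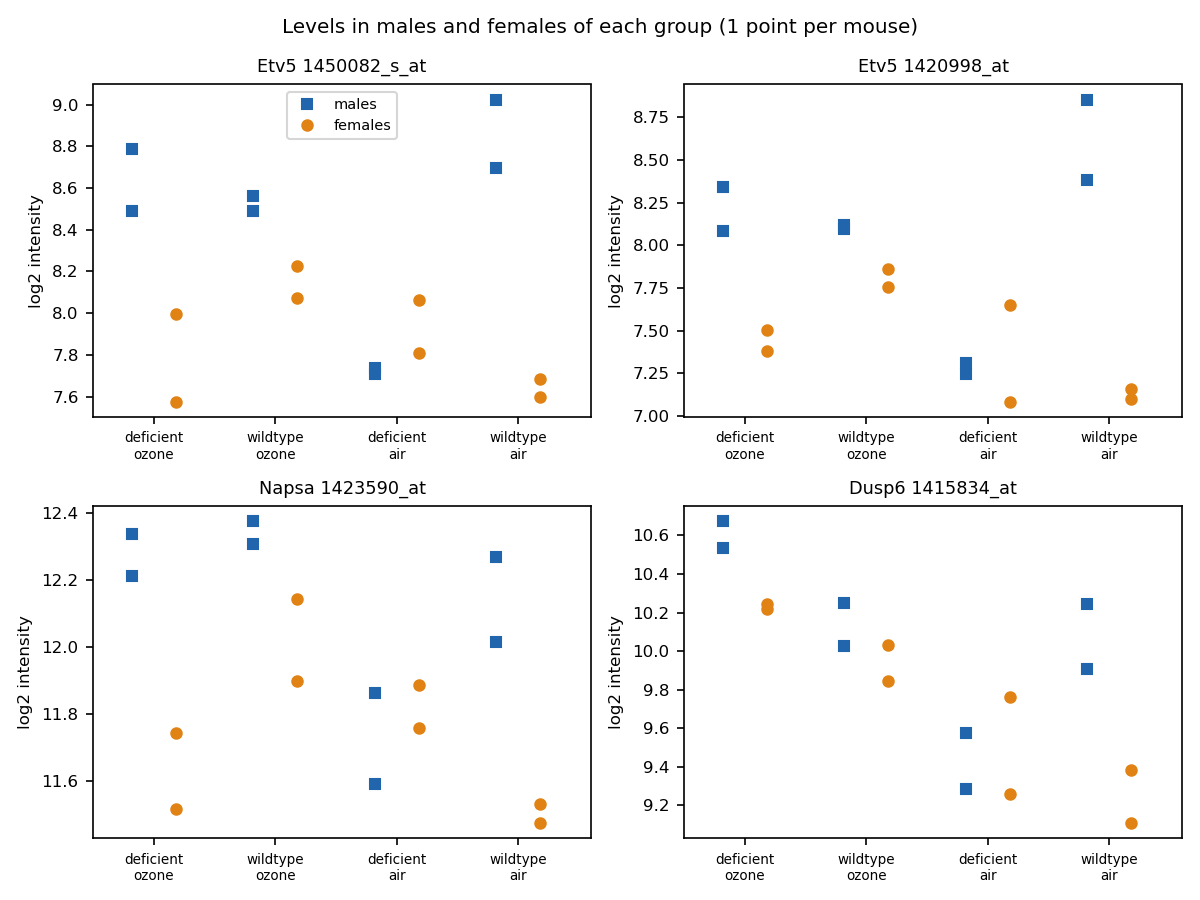
Log2 intensity of both Etv5 probe sets, Napsa and Dusp6 in males (squares) and females (circles) of each group, 1 point per mouse; the y axes do not start at 0. At Etv5 1450082_s_at, deficient air males lie at 7.71 and 7.74 and wildtype air males at 9.02 and 8.69.

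Males and females were then compared apart, with 2 mice in each of 8 groups, a choice made after the values by array were seen. In wildtype air, males exceeded females at both Etv5 probe sets (1.22 ± 0.15 and 1.49 ± 0.18, limma adjusted p = 0.00301 and 0.00192) and at Napsa (0.64 ± 0.13, limma adjusted p = 0.0259), 3 of 16 members against 2.3% of all probe sets. The same comparison called 0 members in deficient air and 0 in wildtype ozone, and 1, Etv5 1450082_s_at (0.85 ± 0.15, limma adjusted p = 0.0446), in deficient ozone, where 0.137%, 0.358% and 0.376% of all probe sets were called. Both Etv5 calls in wildtype air were kept in all 25 and 23 other settings that gave a value. The Napsa call in wildtype air was lost without any 1 wildtype air array (adjusted p 0.0502 to 0.208) and without the 3 air arrays with other tissue (0.116). The Etv5 call in deficient ozone was lost without the 3 air arrays (0.0583), with a common median (0.0578), with 1 probe set per gene or their mean (0.0515 and 0.0665), and in 11 of the 16 fits that left out 1 array, all but those without a deficient air array or deficient ozone F1 (0.0558 to 0.332).

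Between the genotypes in air, deficient males were lower than wildtype males at both Etv5 probe sets, by -1.13 ± 0.15 and -1.34 ± 0.18 (limma adjusted p = 0.0397 for each). On the whole array 6 probe sets were called in that comparison, 0.0265%, and the other 4 belonged to Itgav, Atp8a1, Clec16a and 1 probe set with no name here. Those 2 Etv5 calls were lost in 10 and 12 of the 16 fits that left out 1 array, each time without deficient air M2, wildtype air M1, F1 or F2, any wildtype ozone array or deficient ozone M1 or M2, and for 1420998_at also without deficient ozone F1 or F2 (adjusted p 0.0570 to 0.412). Without the 3 air arrays with other tissue, which leaves 1 deficient air male, the differences were -1.15 and -1.37 (adjusted p = 0.216 and 0.135). In females the same differences were 0.29 ± 0.15 and 0.24 ± 0.18 (limma adjusted p = 0.733 and 0.798). The test of the difference between the sexes gave -1.43 ± 0.22 and -1.58 ± 0.25, which did not pass the adjustment over all probe sets (limma adjusted p = 0.176 for each). That test called 0 of all probe sets.

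Ozone in deficient males raised 10 of the 16 probe sets, of 8 genes, where 14.4% of all probe sets were called and 8.42% were called higher, and none of the 16 was called lower. They were both Etv5 probe sets (0.91 ± 0.15 and 0.94 ± 0.18, limma adjusted p = 0.00240 and 0.00454), Lpcat1 1424459_at (0.69 ± 0.14), Abca3 1425496_at and 1451731_at (0.59 ± 0.10 and 0.40 ± 0.10), Napsa (0.55 ± 0.13), Sftpd (0.46 ± 0.08), Sftpb (0.43 ± 0.08), Sftpa1 1422334_a_at (0.31 ± 0.09) and Slc34a2 (0.28 ± 0.08), the last 8 at limma adjusted p between 0.00229 and 0.0432. Calls of Sftpb, Sftpd, Abca3 1425496_at and both Etv5 probe sets were kept in every other setting that gave a value (25, 25, 23, 25 and 23 settings). Without the 3 air arrays, which removes deficient air M2 and leaves 1 deficient air male, 6 of the 16 stayed called: those 5 and Lpcat1. The others then had adjusted p = 0.222 for Sftpa1 1422334_a_at, 0.0732 for Abca3 1451731_at, 0.117 for Napsa and 0.118 for Slc34a2. The Sftpa1 call was lost in 15 of 25 other settings, with differences down to 0.087 and adjusted p up to 0.688, both with the mean of the gene's probe sets. The number called fell to 5 without deficient ozone M1.

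In deficient females ozone was called for 2 members, both lower: Sftpa1 1429626_at (-0.69 ± 0.16, limma adjusted p = 0.010005) and the dim Abca3 1451869_at (-0.51 ± 0.13, limma adjusted p = 0.0146), against 19.4% of all probe sets. The first was lost without deficient air F2 or deficient ozone F2 (adjusted p 0.0734 to 0.0867) and without the 3 air arrays with other tissue (0.0566), the second without deficient air F1 or deficient ozone F2 (0.115 to 0.122). Among the 16, 13 had a positive ozone difference in deficient males and 6 in deficient females. The median over the 16 was 0.36 in deficient males, against -0.0050 over all probe sets, and -0.11 in deficient females, against 0.0087. The differences between the sexes did not pass: 0 of 16 members and 0 of all probe sets were called, while 12 of 16 members had an unadjusted p under 0.05, against 6.13% of all probe sets. The largest was Etv5 1450082_s_at, 1.06 ± 0.22 (limma adjusted p = 0.362). These 16 are not independent, since probe sets of 1 gene share its RNA and all share the same arrays. Among those arrays, deficient air M2 and F2 carried other tissue, and the split by sex was chosen after the values were seen.

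In wildtype males 6 of 16 were called for ozone, against 28.2% of all probe sets. Higher were Abca3 1451731_at (0.29 ± 0.10) and 1425496_at (0.31 ± 0.10), Lpcat1 1424460_s_at (0.35 ± 0.11) and 1424459_at (0.55 ± 0.14), and lower were Sftpa1 1429626_at (-0.59 ± 0.16) and Etv5 1420998_at (-0.51 ± 0.18, limma adjusted p = 0.0468). In wildtype females 3 were called, all higher, against 16% of all probe sets: Napsa (0.52 ± 0.13) and Etv5 1450082_s_at and 1420998_at (0.51 ± 0.15 and 0.68 ± 0.18). The call of Etv5 1450082_s_at in females ended with array weights (adjusted p = 0.0506). The Etv5 call in wildtype males was lost in 16 of 23 other settings, among them quantile normalization again (0.0649), a common median (0.0549) and 13 of the 16 fits that left out 1 array, with differences between -0.75 and -0.28. Quantile normalization again also ended the wildtype male calls of Abca3 1451731_at (0.0585) and Lpcat1 1424460_s_at (0.0725), and the mean of the gene's probe sets that of Abca3 (0.443). Without wildtype ozone M1 none of the 6 calls in wildtype males was kept, and without wildtype air F1 none of the 3 in wildtype females. Without the 3 air arrays with other tissue, 1 of the 3 in wildtype females, Etv5 1420998_at, was kept, while Napsa had 0.0720 and Etv5 1450082_s_at 0.110, and in wildtype males Abca3 1425496_at was lost (0.0549). The sexes in wildtype mice were not shown to differ in ozone response: 0 members were called for that difference, against 0.0177% of all probe sets, with Etv5 at -0.84 ± 0.22 and -1.19 ± 0.25 (limma adjusted p = 0.242 and 0.176). Between the genotypes, ozone in males differed by 1.25 ± 0.22 and 1.45 ± 0.25 at Etv5 (limma adjusted p = 0.167 for each), and 0 members and 0 of all probe sets were called. Averaged over the genotypes, the ozone difference in males minus that in females lay between -0.16 and 0.39 for the members (limma adjusted p between 0.389 and 0.991).

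**Figure D5:**
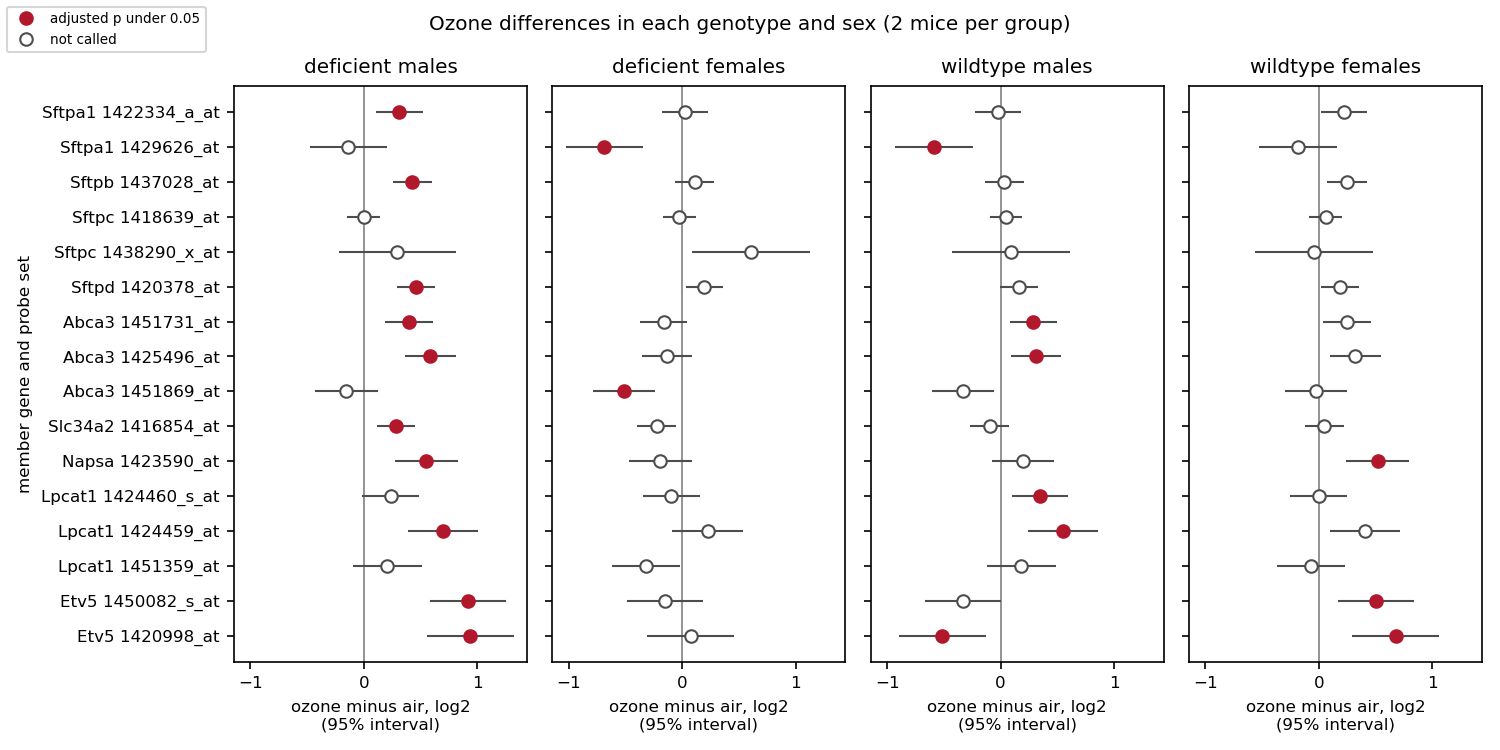
Ozone minus air log2 difference with its 95% interval for each member probe set, from left to right in deficient males, deficient females, wildtype males and wildtype females, with 2 mice per group. Filled points were called: 10, 2, 6 and 3.

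With the sexes together, adiponectin deficiency was not called for any member, as for nearly all of the array: 0 of 16 in ozone, against 0.0133% of all probe sets, and 0 of 16 in air, against 0.00884%. At an unadjusted p under 0.05, limma gave 1 of 16 members in ozone, against 10.9% of all probe sets, and 5 of 16 in air, against 6.91%. In ozone the largest difference was that of Sftpa1 1429626_at, -0.32 ± 0.13 (limma adjusted p = 0.398), and in air the largest were those of Etv5 1420998_at, -0.55 ± 0.24 (limma adjusted p = 0.704), and 1450082_s_at, -0.42 ± 0.22 (limma adjusted p = 0.732). Of the 16 differences, 2 were positive in ozone and 3 in air, but probe sets of 1 gene share its RNA and all share the arrays. Sftpd in air differed by -0.16 ± 0.06 between deficient and wildtype mice, which was not called (limma adjusted p = 0.670). The ozone difference in deficient minus that in wildtype mice was called for 0 of 16 members and for 0 of all probe sets (at an unadjusted p under 0.05, for 0 members and 4.95% of all), and ranged from -0.18 for Napsa to 0.43 for Sftpc 1438290_x_at. For Sftpd it was 0.15 ± 0.08 (95% interval -0.03 to 0.33). The genotype comparisons share arrays with both ozone comparisons.

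Beside the members, 6 lists of related genes were read, each gene by the probe set brightest over all arrays. Of all 12393 genes read so, 15.6% were called higher and 14.5% lower after ozone in deficient mice, and 19.5% higher and 17% lower in wildtype mice. The range of each count over the 28 other settings follows it in brackets. Of 16 further type 2 genes measured, 5 (4 to 6) were higher and 1 (1 to 2) lower in deficient mice, and 6 (5 to 8) were higher and 0 (0 to 1) lower in wildtype mice. Il33, an alarmin kept in the nucleus, lay between 10.87 and 11.72 in deficient ozone, against 10.11 to 10.40 in deficient air, and between 11.06 and 11.52 in wildtype ozone, against 9.92 to 10.23 in wildtype air. It rose by 1.12 ± 0.15 in deficient and 1.16 ± 0.15 in wildtype mice. In the same order, Muc1, a membrane mucin, rose by 0.87 ± 0.09 and 0.75 ± 0.09, Chil1, a chitinase-like protein, by 0.70 ± 0.11 and 0.60 ± 0.11, and Ctsh, a protease that processes SP-B and SP-C, by 0.55 ± 0.11 and 0.62 ± 0.11 (limma adjusted p at most 0.00158 for these 4 genes). For each of the 4, every ozone array lay above every air array of its genotype. The other calls, named after their values were seen, were Cxcl15 higher in both genotypes, Rab27a higher in wildtype mice and Bex2 lower in deficient mice (-0.62 ± 0.13).

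With the sexes apart, 8 of the 16 further type 2 genes were higher and 0 lower after ozone in deficient males, against 8.89% and 6.37% of all genes, and 3 were higher and 4 lower in deficient females, against 9.95% and 9.92%. S100g, a calcium-binding protein chosen here after its values were seen, was called in opposite directions, 0.47 ± 0.11 in deficient males and -0.35 ± 0.11 in deficient females; the call in males was lost in 4 and that in females in 15 of 25 other settings, both also without the 3 air arrays (0.0852 and 0.214). The other calls in females, seen likewise, were Il33, Muc1 and Chil1 higher and Lyz2, Ppp1r14c and Bex2 lower, of which Chil1 (0.0644), Lyz2 (0.0697) and Ppp1r14c (0.111) ended without the 3 air arrays. The difference between the sexes in ozone response in deficient mice was tested for every probe set, and 0 were called, so none of these genes was shown to differ by sex.

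Of 17 regulators of the type 2 cell measured, 3 (2 to 4) were higher and 1 (1 to 3) lower in deficient mice, and 3 (3 to 4) higher and 2 (2 to 5) lower in wildtype mice. Cebpb, a factor of the acute phase response, rose by 1.27 ± 0.17 in deficient and 1.10 ± 0.17 in wildtype mice, and Stat3, which carries interleukin-6 signals, by 0.66 ± 0.09 and 0.58 ± 0.09. Nr3c1, the glucocorticoid receptor, changed by -0.25 ± 0.06 and -0.28 ± 0.06, called lower in both, though without the 3 air arrays the call in deficient mice ended (0.0595). Cebpd rose in deficient mice (0.66 ± 0.23, limma adjusted p = 0.0418, lost in 11 of 28 other settings) and was not called in wildtype mice (0.35 ± 0.23), while Foxp1, a forkhead factor of the lung epithelium, was called in wildtype mice (-0.56 ± 0.10) and not in deficient mice (-0.26 ± 0.10). Nkx2-1 was not called, at 0.09 ± 0.15 in deficient and -0.26 ± 0.15 in wildtype mice.

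Around Etv5, of 13 genes of fibroblast growth factor signalling measured, 1 (1 to 1) was higher and 5 (3 to 5) lower in deficient mice, and 1 (1 to 2) higher and 4 (4 to 4) lower in wildtype mice. Fgf7, a growth factor that fibroblasts send to type 2 cells, lay between 7.25 and 7.46 in deficient ozone, against 7.95 to 8.28 in deficient air, and between 7.14 and 7.34 in wildtype ozone, against 7.96 to 8.20 in wildtype air, without overlap. Its difference was -0.75 ± 0.07 in deficient and -0.85 ± 0.07 in wildtype mice. In the same order, Fgf1 differed by -0.72 ± 0.09 and -0.50 ± 0.09, Bmp4, a morphogen, by -0.72 ± 0.10 and -0.81 ± 0.10, and Spry2, an inhibitor induced by the pathway, by -0.33 ± 0.10 and -0.58 ± 0.10, all called lower. The Spry2 call in deficient mice ended without the 3 air arrays (0.151). Dusp6, a phosphatase that switches off ERK and is itself induced by ERK signalling, rose in deficient mice (0.95 ± 0.16, limma adjusted p = 0.000555) and was not called in wildtype mice (0.38 ± 0.16, limma adjusted p = 0.0853). Dusp6 (1415834_at) lay at 10.53, 10.67, 10.24 and 10.22 in deficient ozone, against 9.57, 9.28, 9.26 and 9.76 in deficient air. In wildtype mice Dusp6 lay at 10.25, 10.03, 9.85 and 10.03 after ozone, against 10.25, 9.91, 9.11 and 9.38 in air. As at Etv5, the wildtype air males stood above the wildtype air females (0.83 ± 0.17, limma adjusted p = 0.0311), a call that ended without the 3 air arrays (0.0847) or without any 1 wildtype air array. Etv4, higher in wildtype mice, and Fgfr2, lower in deficient mice, were the remaining calls, named after their values were seen.

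Of 20 genes of surfactant lipid synthesis measured, 3 (0 to 3) were higher and 7 (3 to 8) lower in deficient mice, and 4 (3 to 6) higher and 6 (4 to 6) lower in wildtype mice. Chpt1, which makes the last step to phosphatidylcholine, differed by -0.88 ± 0.14 in deficient and -0.72 ± 0.14 in wildtype mice. In the same order, Lpin1, a phosphatidate phosphatase, differed by -0.65 ± 0.11 and -0.45 ± 0.11, and Gpam, a mitochondrial glycerol-3-phosphate acyltransferase, by -0.32 ± 0.07 and -0.33 ± 0.07, both lost with the mean of the gene's probe sets (0.301 and 0.0978). Stard10, a phospholipid transfer protein, rose by 0.31 ± 0.08 and 0.34 ± 0.08. In another setting no gene of this list was called higher in deficient mice, so the call of Stard10 in deficient mice ended there.

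Of 13 genes of lamellar body traffic measured, 2 (2 to 3) were higher and 1 (1 to 2) lower in deficient mice, and 3 (2 to 4) higher and 1 (1 to 3) lower in wildtype mice. Anxa2, an annexin, rose by 0.38 ± 0.07 in deficient and 0.33 ± 0.07 in wildtype mice, and Anxa7 by 0.22 ± 0.06 and 0.24 ± 0.06, both lost with the mean of the gene's probe sets (0.465 and 0.906). Hps3, a gene of Hermansky-Pudlak syndrome, differed by -0.27 ± 0.07 and -0.28 ± 0.07, called lower in both. Ap3d1, an adaptor subunit of vesicle sorting, rose in wildtype mice (0.17 ± 0.06, but 0.0521 without the 3 air arrays) and was not called in deficient mice (0.15 ± 0.06).

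Surfactant is cleared in part by alveolar macrophages under GM-CSF. Of 13 clearance genes measured, 2 (0 to 3) were higher and 2 (1 to 2) lower in deficient mice, and 3 (0 to 3) higher and 2 (1 to 3) lower in wildtype mice. Abca1, a cholesterol exporter, had the largest difference of them, -0.995 ± 0.09 in deficient and -1.18 ± 0.09 in wildtype mice. In the same order, Spi1, the myeloid factor PU.1, rose by 0.67 ± 0.22 and 0.61 ± 0.22. Csf2rb2, a chain of the interleukin-3 receptor, rose by 0.59 ± 0.19 and 0.52 ± 0.19. Without the 3 air arrays both Spi1 calls (0.142 and 0.0998) and both Csf2rb2 calls (0.100024 and 0.0815) ended, and over the 28 other settings Spi1 was lost in 8 and 10 and Csf2rb2 in 7 and 15. Msr1, a scavenger receptor, rose in wildtype mice (0.28 ± 0.08). Csf2ra, a chain of the GM-CSF receptor, was lower in wildtype mice (-0.47 ± 0.15). Pparg, which GM-CSF induces in alveolar macrophages, was lower in deficient mice (-0.61 ± 0.21). None of these 3 was called in the other genotype, and the calls of Csf2ra and Pparg were lost in 6 and 9 of the 28 other settings. The call of Msr1 was also lost in another setting, where no clearance gene was called higher in wildtype mice.

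Some marker lists differed in the same comparisons. The epithelial list is of epithelium in general, not of a cell type other than type 2. Summed over 8 proliferation markers, intensity lay between 3159.7 and 4327 in deficient ozone, against 564 to 592 in deficient air, and between 2553 and 3117 in wildtype ozone, against 499.5 to 573 in wildtype air, and 8 of 8 were called higher in both genotypes. Summed over 9 epithelial keratin, claudin and adhesion genes it lay between 24664 and 27399.5 in deficient ozone, against 13664 to 16129.8 in deficient air, and between 24346 and 28809 in wildtype ozone, against 14503 to 18427.5 in wildtype air, with 8 of 9 called higher in both. Alveolar type 1 markers (9 genes) lay between 47142 and 51844 in deficient ozone, against 50807 to 56824 in deficient air, and between 52386 and 55913 in wildtype ozone, against 52849 to 57527 in wildtype air. Of these genes, 1 was called higher and 4 lower in deficient mice, and 2 higher and 1 lower in wildtype mice. Club cell markers (8 genes) lay between 84254 and 92224 in deficient ozone, against 91965 to 97708 in deficient air, and between 90754 and 95859 in wildtype ozone, against 91629.5 to 101563 in wildtype air. Among them 0 were called higher and 3 lower in deficient mice, and 1 higher and 1 lower in wildtype mice. Mature dendritic markers (9 genes) lay between 2121 and 2843 in deficient ozone, against 1394 to 1637 in deficient air, and between 1859 and 2948 in wildtype ozone, against 1410 to 1660 in wildtype air, with 3 higher and 0 lower in deficient mice and 4 higher and 1 lower in wildtype mice. Fibroblast markers (7 genes) lay between 21254 and 26370 in deficient ozone, against 15771 to 17771 in deficient air, and overlapped in wildtype mice, at 18364 to 26924 after ozone, against 16964.5 to 21528 in air, with 3 higher and 2 lower in both. Sums of macrophage and of endothelial markers overlapped between ozone and air in both genotypes, and neutrophil markers reached 37432 on 1 wildtype ozone array, against 7733 at most in wildtype air. Of 8 endothelial markers, 3 were called higher and 1 lower in deficient mice, and 0 higher and 2 lower in wildtype mice. Of 10 macrophage markers, 1 was higher and 2 lower in deficient mice, and 2 higher and 2 lower in wildtype mice. No neutrophil marker was called in either genotype. No value of the table was at 0 (the lowest was 11.1), and the part of the cell mixture in the members' differences was not tested.

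The 5 genes outside the members whose centred log2 values over 16 arrays were nearest to those of Lpcat1 1424459_at, the member with the largest mean ozone difference, were Commd4, Agpat3, Lama1, Cuta and Dbnl, with root mean square differences between 0.126 and 0.143. Their ozone differences lay between 0.35 and 0.49 in deficient mice and between 0.36 and 0.54 in wildtype mice. Because these genes were chosen by likeness to this probe set over the same arrays, ozone differences near its own follow from the choice. Agpat3 encodes another acyltransferase of phospholipid synthesis.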

How the data were processed

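RNA from the left lung of 16 mice was hybridised to Affymetrix arrays as 1 biotin-labelled sample per array, in 4 groups of 4. The deposited table holds RMA intensity made by the authors (RMA per the submitters' processing notes; no version is given in the sources used here). Its values lie between 11.1 and 26975, so they were read as linear and log2 of the deposited intensity was taken. RMA corrects background and quantile-normalises all arrays together, which compresses small differences of the dimmest and brightest probe sets and hides a shift common to all genes. Of 22690 probe sets, 64 controls were left out. The platform annotation names 1 symbol for 20380 of the 22626 tested, several for 691 and none for 1555, and may be old. Files without counts give no read depth; for arrays, their number limits precision.

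A linear model with the 4 groups and sex was fitted to all 22626 probe sets by limma's lmFit and eBayes (limma 3.58.1, R 4.3.3), with Benjamini-Hochberg adjustment and calls under 0.05. A second limma fit, with 8 groups of genotype, exposure and sex, was added after the values had been seen; a planned contrast of it averages sex by ozone over the genotypes. Adipoq was tested by a two-sided exact permutation test. The labels do not say whether mice of a group were littermates, so p-values measure the spread between these mice. Scripts were tested on simulated data. Same-numbered mice were not treated as pairs, and the sample titles name no pairing. Residuals of the fit with group and sex correlated at -0.33 to 0.11 over 12 pairs of M1 or of F1 arrays. M2 and F2 arrays were not looked at. The lowest value was between wildtype ozone F1 and wildtype air F1, an array with other tissue. Such a correlation takes in whatever marks a whole array, so it cannot decide whether mice were paired. Python 3.11.15, pandas 2.3.3 and matplotlib 3.10.9 made tables and figures. Settings tried were normalization, centring, a filter on dim probe sets, probe sets per gene, the variance prior, array weights, the sex term, the replicate block, the compared groups alone, a threshold of 0.01, and arrays left out.

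All members are named. Of each related list, the called genes among the 4 of smallest adjusted p in each ozone comparison are named, and 5 genes nearest in profile to the member probe set with the largest mean ozone difference. Members, lists and the 3 air arrays left out in one setting were chosen with earlier results of these data known.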

Additional observations from a re-analysis of the deposited data

Results flagged for a closer look

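Within the 4 groups of 4 arrays, 64 combinations of member probe set and group were looked at for an array far from the others, and 2 were found; chance alone gives about 1 in 20. Abca3 1425496_at lay at 9.86 on wildtype ozone M1, while the other 3 wildtype ozone arrays lay between 9.71 and 9.73. Lpcat1 1451359_at lay at 11.54 on wildtype ozone F2, while the other 3 lay between 11.38 and 11.40.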

How the results depend on the processing

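Over 28 other settings, 5984 member differences were recomputed: 0 called differences changed sign, 151 uncalled ones did, 74 calls were gained and 237 lost. Counts are of member probe sets, the value as reported first and out of 16. With 1 probe set per gene or the mean they are out of 9 genes, and without dim probe sets out of 14 probe sets. Ozone in deficient mice gave 4, against 2 with 1 probe set per gene, 2 with the mean of a gene's probe sets and 1 at 0.01. Ozone in wildtype mice gave 5, against 3 after quantile normalization again, 2 with 1 probe set per gene, 1 with the mean, 3 without the sex term, 1 at 0.01 and 2 without the 3 air arrays. Deficient males gave 10, against 6 at 0.01 and 6 without the 3 air arrays. Deficient females gave 2, against 1 without dim probe sets, 0 with 1 probe set per gene, 4 with a trended robust prior, 0 at 0.01 and 1 without the 3 air arrays. Wildtype males gave 6, against 2 with 1 probe set per gene, 1 with the mean and 0 at 0.01. Wildtype females gave 3, against 6 with a common median, 5 with the trended prior, 0 at 0.01 and 1 without the 3 air arrays. Sex gave 3, against 5 with a common median, 2 with the trended prior (1 higher and 1 lower) and 0 at 0.01. Sex in deficient ozone gave 1, against 2 with the trended prior, 2 with array weights, and 0 with a common median, 1 probe set per gene, the mean, 0.01 or the 3 air arrays left out. Sex in deficient air gave 0, against 2 with the trended prior and 1 without the 3 air arrays. Genotype in air males gave 2, against 1 with 1 probe set per gene, 1 with the mean, 0 at 0.01 and 0 without the 3 air arrays. The cause was tested for none of these beyond the settings' own construction (fewer probe sets, fewer arrays or a stricter threshold).

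Leaving out 1 array at a time gave 2 to 5 members for ozone in deficient mice, 1 to 6 in wildtype mice, 5 to 10 in deficient males, 0 to 2 in deficient females, 0 to 7 in wildtype males, 0 to 5 in wildtype females, 0 to 4 for sex, 2 to 3 for sex in wildtype air, 0 to 2 in deficient air, 0 to 2 in deficient ozone, 0 to 0 in wildtype ozone, 0 to 3 for genotype in air males, and 0 to 0 for genotype in air, genotype in ozone and the interaction. Of all probe sets it called 5160 to 6749 for ozone in deficient mice, 6845 to 8325 in wildtype mice, 1360 to 2338 for sex, 2 to 3 for genotype in air, 0 to 0 for the interaction and 2 to 11 for genotype in ozone.

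Of all probe sets, ozone in deficient mice called 6639, against 3761 with 1 probe set per gene, 3813 with the mean and 4072 at 0.01. In the same order, ozone in wildtype mice called 8223, against 4546, 4736 and 5035, and sex 2076, against 701, 821 and 603. In this paragraph, counts with 1 probe set per gene and with the mean are out of 12393 genes, and the others out of 22626 probe sets. Genotype in air called 2, against 1 with 1 probe set per gene and 1 with the mean. Genotype in ozone called 3, against 6 after quantile normalization again, 5 with the mean, 22 with array weights, 13 with the compared groups alone and 19 without the 3 air arrays.

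With the replicate number as a replicate block, members called were 5 for ozone in deficient mice, 4 in wildtype mice and 0 for genotype in air, genotype in ozone and the interaction. Of all probe sets, the replicate block called 6498 for ozone in deficient mice, 8036 in wildtype mice, 2 for genotype in air, 0 for the interaction and 5 for genotype in ozone. Sftpc 1418639_at at the top of the scale, and Sftpc 1438290_x_at and Abca3 1451869_at near the absent level, limit what can be read of them.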
